A study of Homo sapiens with 10 samples.

Results

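AXIN2, NKD1 and NKD2 are 3 genes whose products restrain the WNT pathway that switches them on. They were taken by name, as the probe sets that the platform's annotation pairs with these symbols. Each had 1 probe set, so 3 genes of the 10797 tested are described here, and all 3 lay above the array median on all 10 arrays. The cells were HCT116, a widely used line from a human colorectal carcinoma, and each Affymetrix array reported 53617 probe sets. The groups were the ORC1 mutant lines ORC1B14 and ORC1BP32, the ORC2 mutant lines ORC2B2 and ORC2BP8, and a wild-type line (WT). Each line had 2 arrays and none was treated, so there were 8 mutant arrays and 2 WT arrays. The origin recognition complex, to which both mutated genes contribute a subunit, marks the sites where DNA replication starts. The labels give neither the kind of ORC mutation nor whether a line is 1 clone, and all mutant lines are set against the same WT arrays. They call the 2 replicates of a line biological and say no more of how these were grown or collected, so each p-value reflects only how far these arrays differ.

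In WNT signalling, beta-catenin is held low by a destruction complex of APC, an AXIN scaffold and the kinases GSK3 and CK1. When a WNT ligand engages its Frizzled and LRP receptors, Dishevelled disables that complex, and beta-catenin enters the nucleus and activates genes with TCF and LEF factors. Some of those genes feed back on the pathway. AXIN2 encodes an inducible AXIN scaffold, and NKD1 and NKD2 encode Naked cuticle proteins, which bind Dishevelled. HCT116 cells carry a beta-catenin mutation that lets the protein escape the destruction complex, so the pathway is active without ligand.

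Values are log2 expression values as the authors deposited them, and a difference of 1 is a factor of 2. The log base was read from the range of the values, 1.446 to 13.71, since no label states it. Array medians lay between 3.87 and 3.96. Epithelial markers were present at unlike levels, with 10 of 14 colorectal epithelium genes named and all 10 past the filter. EPCAM stood between 9.75 and 10.46 on mutant arrays and at 10.17 and 10.26 on WT arrays, and KRT18 between 10.40 and 11.88 against 10.18 and 10.57. Intestinal genes of that list were dimmer, such as CDX1 at 4.54 to 5.02 against 4.65 and 4.66. Some were not alike between mutant and WT arrays. KRT20 ran from 4.13 to 6.58 on mutant arrays against 3.98 and 4.16 in WT, and CDX2 from 5.42 to 5.74 against 5.31 and 5.40. TFF3 leaned the other way, at 4.38 to 5.38 against 4.97 and 5.79. VIL1 stood at 4.10 to 4.44 against 3.93 and 4.185, near the array medians. Of 8 fibroblast markers 3 were named: DCN and LUM lay under 3 on the arrays of each line, while THY1 passed the filter at 4.17 to 4.82 on mutant arrays and at 4.16 and 4.82 on WT arrays. Of 8 blood cell markers 3 were named and 1 passed, the lysosomal gene CD68, at 7.73 to 9.25 on mutant arrays and at 7.76 and 8.24 on WT arrays. Of 7 hepatocyte and kidney markers 6 were named and 4 passed, PAX2 highest at 5.99 to 6.69 against 5.59 and 5.89, while ALB and AFP did not pass. The part of these markers in the results was not tested. The mutated genes themselves are not analysed here.

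AXIN2 is on chromosome 17, NKD1 on chromosome 16 and NKD2 on chromosome 5. Because the 3 genes were chosen as targets of beta-catenin with TCF and LEF factors, the promoter windows in the RefSeq table (GRCh38.p14) were searched on both strands for CTTTGNN with each N limited to A or T, which makes 4 motifs. The window of NKD2, from 250 bases before to 50 after the gene's start, was the member window in that table. It lies on the plus strand at chr5:1008552-1008851 and is shown with each CG dinucleotide in capitals:

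NKD2 promoter: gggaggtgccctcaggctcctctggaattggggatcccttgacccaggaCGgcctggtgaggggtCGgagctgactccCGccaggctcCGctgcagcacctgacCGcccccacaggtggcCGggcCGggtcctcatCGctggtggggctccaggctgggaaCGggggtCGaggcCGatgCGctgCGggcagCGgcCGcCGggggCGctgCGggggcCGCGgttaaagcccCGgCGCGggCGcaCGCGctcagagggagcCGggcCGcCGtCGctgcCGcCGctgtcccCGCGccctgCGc

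These 300 bases held 0 matches to the 4 motifs, which says only that those letters are not in this window. Of all 35116 windows, 13.8% held at least 1 match. The NKD2 window had 35 CG dinucleotides, against a median of 14 over all windows.

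AXIN2, the inducible scaffold, was higher on every mutant array than on either WT array. It rose by 1.86 in ORC2B2 and by 1.43 in ORC2BP8 on the log2 scale, a fold of 3.63 and 2.69, and past the threshold in both. In ORC1B14 and ORC1BP32 its differences from WT were 1.30 and 1.24, and neither passed the threshold. The AXIN2 difference between the ORC2 and the ORC1 lines, 0.37, did not pass the threshold either. NKD1 and NKD2 differed from WT by less than 0.4 on the log2 scale in each of the 4 mutant lines, and neither passed the threshold in any of them. So of the 3 feedback genes, AXIN2 passed the test in some of the mutant lines, and NKD1 and NKD2 passed it in none of them.

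In ORC1B14, AXIN2 stood at 7.11 and 7.52 (mean 7.32 ± 0.29, SD, n = 2). The ORC1BP32 arrays gave 7.10 and 7.42 (mean 7.26 ± 0.22). In ORC2B2 the values were 8.04 and 7.71 (mean 7.88 ± 0.23). ORC2BP8 had the widest spread of the 5 lines, with 7.02 and 7.87 (mean 7.44 ± 0.60), and its lower array still lay above WT. The WT arrays gave 6.05 and 5.99 (mean 6.02 ± 0.04). From high to low the order was ORC2B2, ORC2BP8, ORC1B14, ORC1BP32 and WT. The arrays of neighbouring mutant lines in that order overlapped, and the step of 1.24 between ORC1BP32 and WT was the one without overlap. A gene with all 8 mutant arrays above both WT arrays was not rare, since 7.96% of the genes tested showed this.

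**Figure D1:**
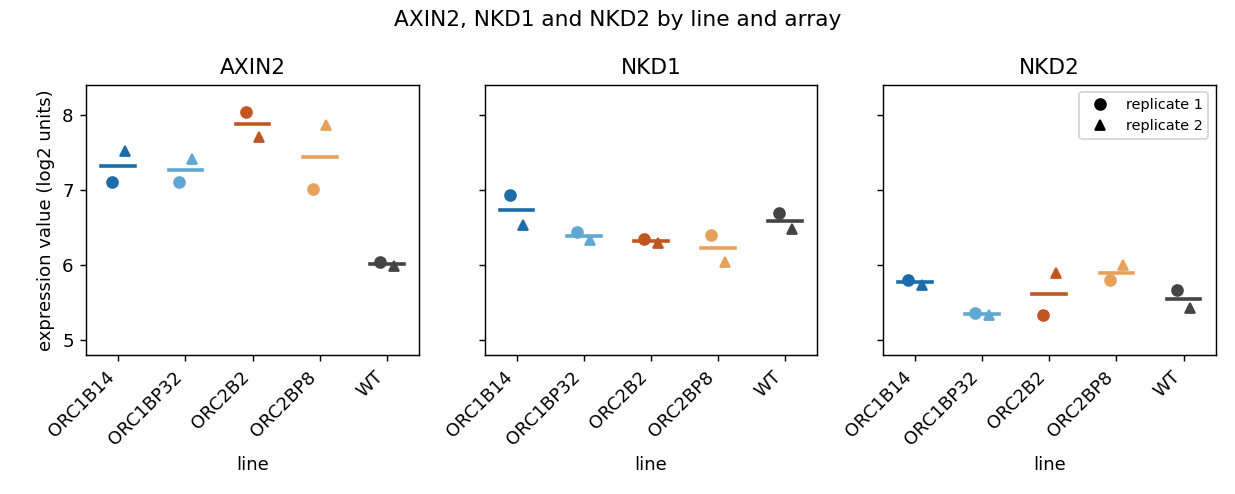
Expression values (log2 units, y axis) of AXIN2, NKD1 and NKD2 in the 4 mutant lines and WT (x axis), with replicate 1 as circles, replicate 2 as triangles and the line mean as a bar. AXIN2 lies between 7.02 and 8.04 on the mutant arrays and at 5.99 and 6.05 on the WT arrays, while mutant and WT arrays of NKD1 and NKD2 overlap.

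Each mutant line was then tested against WT with limma, fitted over all 10797 genes with Benjamini-Hochberg adjustment at 0.05. In ORC2B2 the AXIN2 difference was 1.86 (SE 0.28, 95% confidence interval 1.24 to 2.48, adjusted p = 0.0322), the gene with rank 13 by p. There 0.12% of all genes were called higher and 0.213% lower. In ORC2BP8 it was 1.43 (SE 0.28, 0.80 to 2.05, adjusted p = 0.0468), at rank 88, where 0.25% of all genes were called higher and 0.685% lower. Both calls were close to the threshold. In ORC1B14 the difference was 1.30 (0.68 to 1.92, adjusted p = 0.0702), at rank 119, and 0.185% of genes were called higher and 0.398% lower. In ORC1BP32 it was 1.24 (0.62 to 1.86, adjusted p = 0.201), at rank 58, and 0% of genes were called higher and 0.0185% lower in that line. The interval of each line excluded 0 before adjustment for the number of genes.

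Averaged over the 4 mutant lines, AXIN2 rose by 1.46 (SE 0.22, 0.97 to 1.95, limma adjusted p = 0.0175), a fold of 2.75. In that comparison 0.417% of genes were called higher and 0.602% lower. Within replicate 1 the difference from the WT array of that number was 1.06 in both ORC1 lines, 1.99 in ORC2B2 and 0.97 in ORC2BP8. Within replicate 2 the ORC1B14 and ORC1BP32 arrays differed by 1.54 and 1.43, and the ORC2B2 and ORC2BP8 arrays by 1.72 and 1.88. All 8 of these AXIN2 differences had to be above 0, since every mutant array lay above both WT arrays. In 3 of the 4 lines the larger one was in replicate 2. The mean of replicate 2 arrays was 0.24 above that of replicate 1 arrays. The calls depended on single arrays: the one for the 4-line mean was lost without WT replicate 1 (adjusted p = 0.125) or WT replicate 2 (0.179), with the difference at 1.49 and 1.43. The call in ORC2B2 was lost without either WT, either ORC1BP32 or either ORC2B2 array, with adjusted p between 0.0568 and 0.169, and that in ORC2BP8 without the same 6 arrays or ORC2BP8 replicate 2 (0.0632 to 0.309). Without ORC2BP8 replicate 1 or 2, AXIN2 passed in ORC1B14 (adjusted p = 0.0408 and 0.0410).

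With all 10 arrays in the fit described above, AXIN2 was called in both ORC2 lines and in neither ORC1 line, a split that other settings changed in ORC1B14 and in the ORC2 lines. The difference between the lines of either mutated gene was therefore tested itself. Between the ORC2 and the ORC1 lines it was 0.37 (SE 0.20, -0.07 to 0.81, limma adjusted p = 0.779), not past the threshold. For NKD1 that difference was -0.29 (-0.63 to 0.04, adjusted p = 0.778), and for NKD2 it was 0.20 (-0.14 to 0.54, adjusted p = 0.880). In all, 0.0463% of genes were called between ORC2 and ORC1 lines in either direction. The error in these tests comes from the spread between the arrays of a line, not between lines with the same mutated gene. They therefore compare these particular lines, not mutation of ORC2 with mutation of ORC1.

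**Figure D2:**
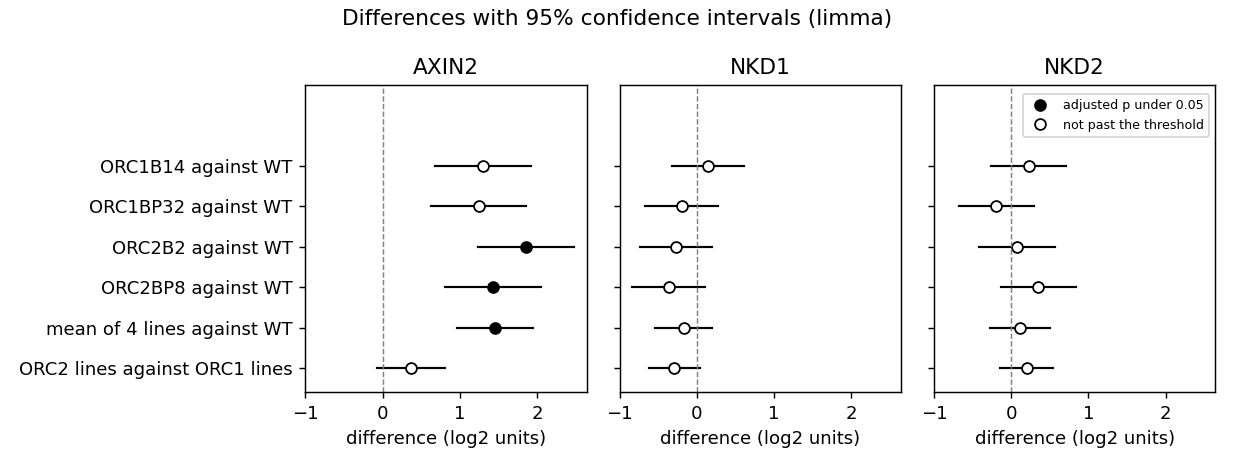
Differences (log2 units, x axis) of AXIN2, NKD1 and NKD2 in 6 comparisons (y axis), with 95% confidence intervals from limma, filled where the adjusted p is under 0.05. For AXIN2 the 5 intervals against WT lie above 0 and 3 points are filled, while all intervals of NKD1 and NKD2 include 0.

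NKD1, which binds Dishevelled and blunts the signal, stood at 6.93 and 6.53 in ORC1B14. In ORC1BP32 it was 6.45 and 6.34, in ORC2B2 6.34 and 6.29, and in ORC2BP8 6.40 and 6.04. The WT arrays gave 6.70 and 6.48. ORC1B14 overlapped WT, while both arrays of ORC1BP32, ORC2B2 and ORC2BP8 lay below both WT arrays. Such separation of 2 arrays below 2 was common, at 18.3%, 19.9% and 20.8% of all genes in these 3 lines. ORC1B14 differed from WT by 0.14 (95% interval -0.33 to 0.62, limma adjusted p = 0.778) and ORC1BP32 by -0.20 (-0.67 to 0.28, adjusted p = 0.827). ORC2B2 differed by -0.27 (-0.74 to 0.20, adjusted p = 0.705) and ORC2BP8 by -0.36 (-0.84 to 0.11, adjusted p = 0.474). Averaged over the 4 lines the difference was -0.17 (SE 0.17, -0.55 to 0.20, adjusted p = 0.654). Taken over the 4 lines, the NKD1 intervals ran from -0.84 to 0.62.

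NKD2, the paralogue of NKD1, stood at 5.81 and 5.73 in ORC1B14, 5.36 and 5.33 in ORC1BP32, 5.34 and 5.90 in ORC2B2, and 5.80 and 5.995 in ORC2BP8. The WT arrays gave 5.67 and 5.42. Both arrays of ORC1B14 and of ORC2BP8 lay above WT, both of ORC1BP32 lay below, and those of ORC2B2 fell on either side. Of all genes, 27.3% had both ORC1B14 arrays above WT, 24.5% both ORC2BP8 arrays above and 18.3% both ORC1BP32 arrays below. Its differences from WT were 0.22 (95% interval -0.26 to 0.71), -0.20 (-0.68 to 0.29), 0.07 (-0.41 to 0.56) and 0.35 (-0.13 to 0.84) in ORC1B14, ORC1BP32, ORC2B2 and ORC2BP8. None passed the threshold (limma adjusted p = 0.641, 0.832, 0.95 and 0.508). The mean of the 4 lines differed from WT by 0.11 (SE 0.17, -0.27 to 0.50, adjusted p = 0.789). NKD1 and NKD2 did not share an order of lines: ORC2BP8 was lowest for NKD1 and highest for NKD2.

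Neighbouring genes on the chromosome were set beside each member, in the order of the RefSeq gene table. Around AXIN2, the 20 nearest tested genes, 10 on each side, had a median difference from WT of -0.31 and 0.11 in the ORC1 lines ORC1B14 and ORC1BP32, and of -0.12 and -0.23 in the ORC2 lines ORC2B2 and ORC2BP8. None of them reached the AXIN2 value in its line: the highest were 0.44, 0.95, 0.56 and 0.47. The nearest on either side, RGS9, a regulator of G protein signalling, and HELZ, a helicase gene, stood at -0.295 and -0.00406 in ORC2B2. The 20 genes around NKD1 had medians of -0.07, 0.09 and 0.05 in ORC1B14, ORC1BP32 and ORC2B2, but -0.65 in ORC2BP8, where 17 of 20 lay below WT. NKD1, at -0.36 there, lies in a stretch of chromosome 16 from ITFG1 to DBNDD1, whose 221 other tested genes had a median of -0.26 in ORC2BP8, with 168 below 0. Its nearest neighbours, BRD7, a bromodomain gene, and NOD2, a sensor of bacterial cell walls, stood at -0.75 and -0.14 in that line. The part of this stretch in the NKD1 value was not tested. Around NKD2, near the end of chromosome 5, 17 tested genes had medians of 0.22, 0.26, -0.01 and 0.19 in the 4 lines. TRIP13, an ATPase gene of the spindle checkpoint and the nearest on one side, stood at 1.2 in ORC1B14, and MIR4635, a microRNA gene on the other side, at 0.16.

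**Figure D3:**
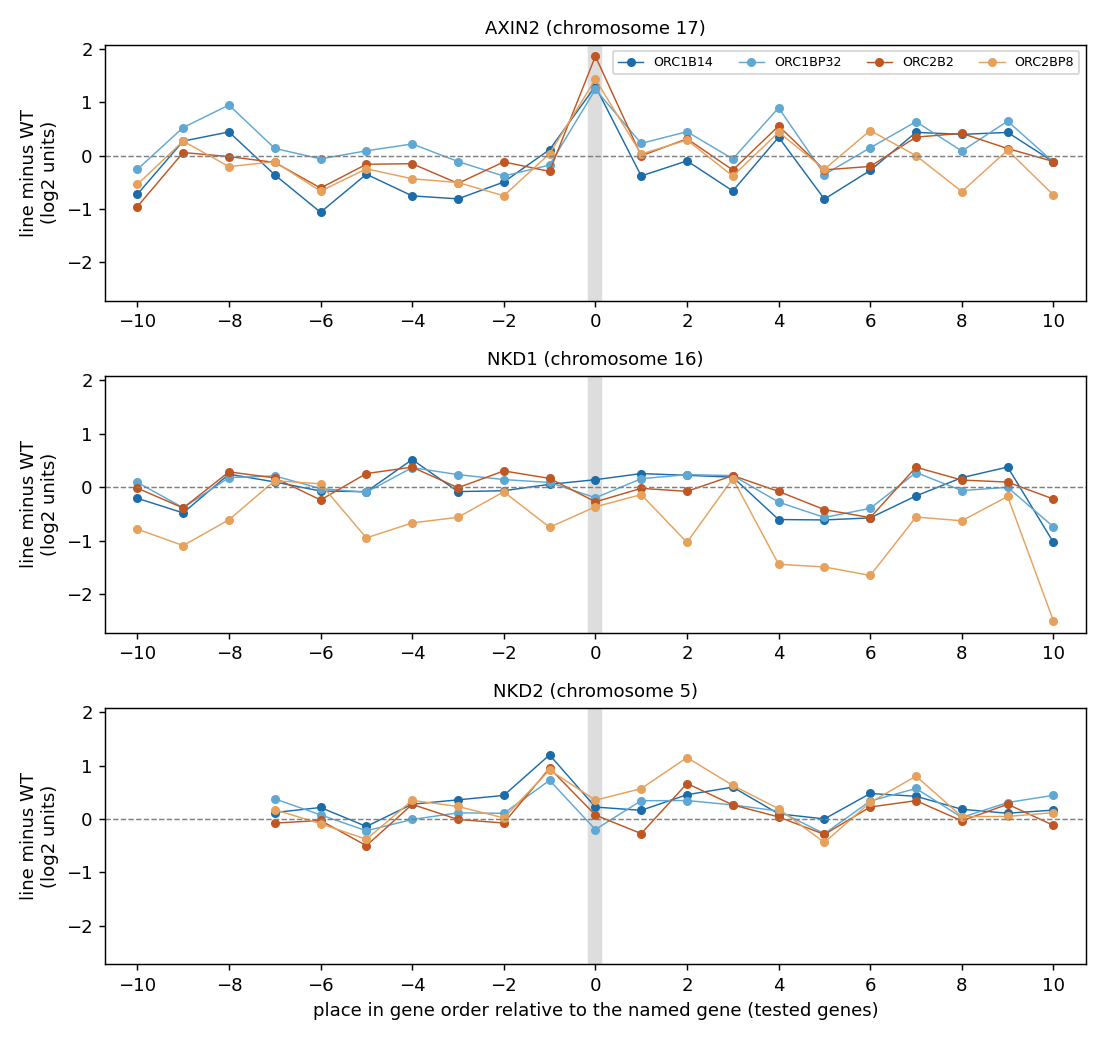
Difference of each mutant line from WT (log2 units, y axis) for each member (grey band) and its nearest tested genes in chromosome order (x axis). AXIN2 stands above its 20 neighbours in all 4 lines, and the genes around NKD1 have a median of -0.65 in ORC2BP8.

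The wider pathway was read through 7 lists with 132 genes, of which 84 were named on the array and 67 were tested. AXIN2 was the gene called in 3 comparisons, and BAMBI, which encodes a decoy receptor of TGF-beta signalling, was the other one called. BAMBI rose by 1.7 in ORC2BP8, with 7.68 and 8.25 in ORC2BP8 and 5.90 and 6.62 in WT (SE 0.28, limma adjusted p = 0.0206). That call was lost without WT replicate 1 (difference 1.34) or ORC2BP8 replicate 2 (1.42). It was also lost with only the arrays of the lines compared (1.7, limma adjusted p = 0.0874). The same held with unnamed probe sets tested as well (1.7, adjusted p = 0.0978). The pathway count was thus 0 higher and 0 lower in ORC1B14 and in ORC1BP32, 1 higher in ORC2B2, 2 higher in ORC2BP8, and 1 higher for the mean of the 4 lines, with 0 lower in each. At an unadjusted p under 0.05, 17% of all genes differed in ORC1B14 and 10.1% in ORC1BP32. The pathway counts use the adjusted p instead, so those shares are not their background. At an adjusted p under 0.05, 0.185% of all genes were called higher and 0.398% lower in ORC1B14, and 0% and 0.0185% in ORC1BP32. In ORC2B2 the shares were 0.12% and 0.213%, in ORC2BP8 0.25% and 0.685%, and for the 4-line mean 0.417% and 0.602%. At such shares 0 calls among 67 genes says little about the pathway. The median over the 67 tested genes for the 4-line mean was 0.10, beside 0.04 for all genes. Of the 67, 8 had all mutant arrays above WT and 3 all below, which is 16.4%, near the 14.9% of all genes.

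Inhibitors and feedback regulators other than the 3 members gave no call, which a list this short can do at the shares called over all genes. Of this list's 27 genes 23 were named and 16 tested, members included, with a median of 0.19 for the 4-line mean. ZNRF3 and RNF43 encode ubiquitin ligases that remove Frizzled receptors and are, like AXIN2, induced by beta-catenin. ZNRF3 stood between 6.48 and 7.13 on mutant arrays and at 6.53 and 6.14 on WT arrays, a difference of 0.47 (SE 0.17, limma adjusted p = 0.2). RNF43 scattered far more, at 5.07 and 6.80 in ORC1B14, 8.39 and 8.63 in ORC1BP32, 8.02 and 7.57 in ORC2B2, and 7.69 and 8.88 in ORC2BP8, with 9.03 and 7.21 in WT. Its WT arrays alone spanned most of the mutant values, and its 4-line difference was -0.49 (SE 0.50, adjusted p = 0.666). In ORC1B14 alone RNF43 differed from WT by -2.19 (SE 0.63, limma adjusted p = 0.131), opposite in sign to AXIN2 and not past the threshold. NOTUM, a secreted enzyme that inactivates WNT ligands, differed from WT by 0.73 in ORC2BP8 (adjusted p = 0.144) and by 0.23 for the 4-line mean (adjusted p = 0.533).

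The destruction complex, through which AXIN2 acts, gave 0 calls among 10 tested genes of 17, with a 4-line median of -0.03. For the 4-line mean 0.417% of all genes were called higher and 0.602% lower. At such shares 0 calls in any of the short lists below says little about the pathway. AXIN1, the constant AXIN scaffold, differed by 0.17 (SE 0.15, limma adjusted p = 0.608), and its mutant arrays lay between 6.34 and 6.67, against 6.16 and 6.34 in WT. APC, the tumour suppressor that AXIN binds, differed by -0.08 (SE 0.17, adjusted p = 0.854). Among beta-catenin and TCF complex genes 5 of 15 were tested and 0 called, with a median of 0.03. LEF1, a DNA-binding partner of beta-catenin, lay below the array median on all arrays, between 2.47 and 3.07 on mutant arrays and at 2.81 and 2.44 on WT arrays. CTNNB1, TCF7, TCF7L2 and the Dishevelled genes DVL1, DVL2 and DVL3 were not analysed here. Of 22 receptor and R-spondin genes 18 were tested and 0 called, with a median of 0.04. The R-spondin receptor gene LGR5 was below the array median in every line. For ligands and their secretion 1 gene was tested, WLS, the carrier of WNT ligands, at 0.04.

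Other target genes of beta-catenin in intestinal cells had 17 tested members of 27, with a 4-line median of 0.13 and 0 calls for that mean. Over all genes 0.417% were called higher and 0.602% lower for it. SP5, a transcription factor gene of the WNT response, had all mutant arrays (4.58 to 5.12) above WT (4.33 and 4.29), a difference of 0.49 (SE 0.18, limma adjusted p = 0.198). CCND1, the gene of cyclin D1, differed by 0.43 (SE 0.15, adjusted p = 0.179). MYC, a growth regulator, went the other way without a call, at -0.55 (SE 0.37, adjusted p = 0.490). ASCL2, a stem cell transcription factor gene, stood at -0.03 (SE 0.26, adjusted p = 0.961).

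**Figure D4:**
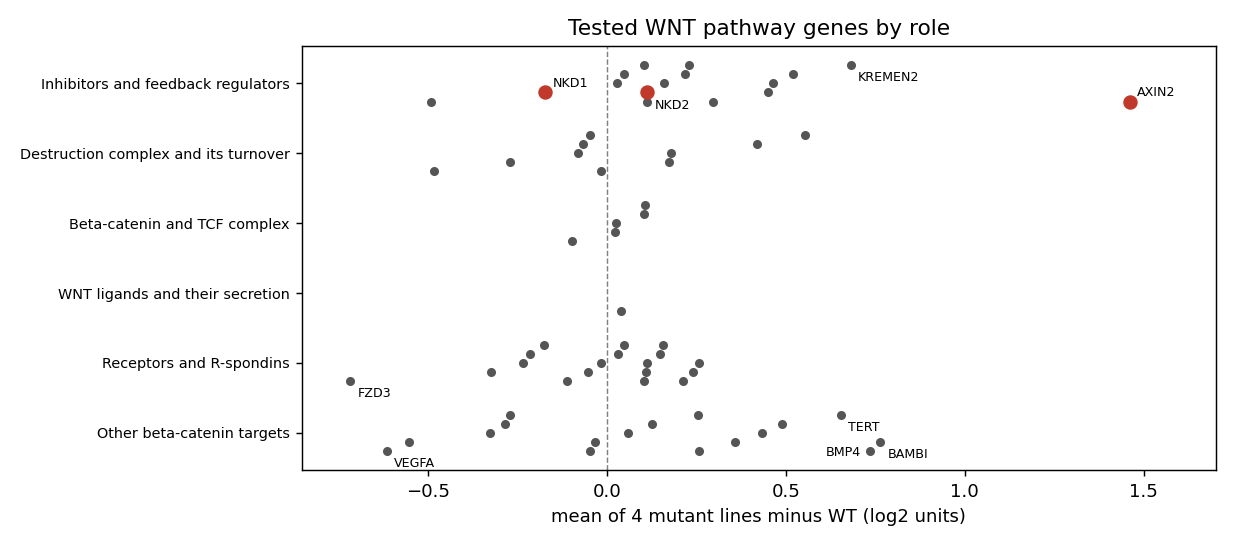
Difference of the mean of 4 mutant lines from WT (log2 units, x axis) for the 67 tested WNT pathway genes, by role (y axis, points shifted vertically for legibility), with the 3 members in red and labels for them and for genes beyond 0.6 in size. AXIN2 stands apart at 1.46, and NKD1 and NKD2 lie at -0.17 and 0.11.

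The genes with the pattern most like each member were found by the root mean square difference over the 10 arrays, after each gene was centred on its own mean. For AXIN2, whose own centred values had a root mean square of 0.66, the nearest were MCM4 (0.277), a subunit of the replicative helicase, and ACAT2 (0.296), an enzyme of acetoacetyl-CoA synthesis. CDC6 (0.305), which loads that helicase, TYMS (0.311), which makes thymidylate, and SKA3 (0.335), a kinetochore gene, came next. Their differences from WT were smaller than those of AXIN2: MCM4 stood at 1.14, 0.91, 1.17 and 1.06 in ORC1B14, ORC1BP32, ORC2B2 and ORC2BP8, and SKA3 at 0.75, 0.67, 0.96 and 0.98. MCM4 lay between 9.27 and 9.73 on mutant arrays, against 8.32 and 8.47 in WT. For NKD1 the nearest were HPX, the heme carrier hemopexin (0.0597), PNPLA6, a phospholipase (0.0721), TEKT4, a tektin of cilia (0.0963), ANKS6 (0.0973) and CTSW, a cathepsin (0.104). For NKD2 they were NOVA2, a splicing factor (0.106), TMEM185A (0.125), AFMID, an enzyme of tryptophan breakdown (0.126), KLF13, a Kruppel-like factor (0.126), and CYB5R2, a cytochrome b5 reductase (0.128). NKD1 and NKD2 varied little over the arrays, with a root mean square of 0.23 and 0.24, so many genes lie near them. These distances are descriptions of 10 arrays and carry no test.

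**Figure D5:**
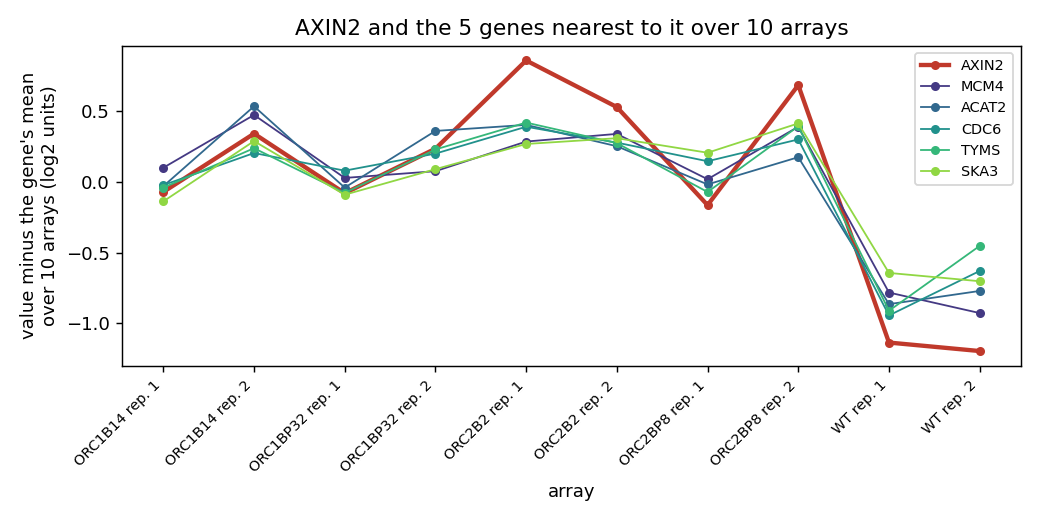
Value minus the gene's mean over 10 arrays (log2 units, y axis) of AXIN2 and the 5 genes nearest to it, for each array (x axis). All 6 genes are low on the WT arrays, and AXIN2 spans the widest range.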

How the data were processed

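The authors deposited log2 expression values in 1 table with a row for each probe set and a column for each of 10 arrays. Per the submitters' processing notes, Affymetrix Expression Console made them, with version, normalization and build not given in the sources used here. The values were used without further scaling. Probe sets were named through the platform's annotation (16098 with 1 symbol, 37519 unnamed here). Those at or above their array's median on at least 2 arrays were kept (11554 named), and the highest stood for a gene, which left 10797 genes. Tests used limma 3.58.1 in R 4.3.3. A mean was fitted for each of 5 lines with lmFit, and eBayes followed the intensity trend (5 residual and 5.83 prior degrees of freedom). P-values are two-sided and Benjamini-Hochberg adjusted over the 10797 genes. The fit was also run on simulated data with independent errors on each array, which does not cover replicate differences that correlate between lines. No 2 arrays held identical values. Members, gene lists and the naming rule (members, called WNT genes, fixed pathway genes, the 5 nearest patterns and the nearest neighbours) were chosen with earlier results of these data known. Comparisons between single mutant lines were added after the data were seen. Alternatives were other normalizations, filters and fits, and leaving out each array. Arrays give no read depth, and their number limits the precision.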

Additional observations from a re-analysis of the deposited data

Results flagged for a closer look

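NKD2 lay on opposite sides of WT in different mutant lines. Both ORC1BP32 arrays (5.36 and 5.33) were below both WT arrays, while both ORC1B14 arrays (5.81 and 5.73) and both ORC2BP8 arrays (5.80 and 5.995) were above them (5.67 and 5.42 in WT). ORC1BP32 minus ORC1B14 was -0.42 (SE 0.22, 95% interval -0.91 to 0.07, limma adjusted p = 0.998). ORC2BP8 minus ORC1BP32 was 0.55 (SE 0.22, 0.06 to 1.04, unadjusted p = 0.0304, limma adjusted p = 0.654). Neither difference passed the threshold. All of these lines were set against the same 2 WT arrays. With 2 arrays per line, no line was large enough for a test for outlying arrays.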

How the results depend on the processing

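AXIN2 stayed above WT in all 94 values under the alternatives (1.0 to 2.02). Since every mutant array lay above both WT arrays, only the other normalizations could have turned that sign. None of 220 values for NKD1 and NKD2 had an adjusted p under 0.05 (lowest 0.248). What changed was the side of the threshold, and the cause was not tested. In ORC1B14, AXIN2 passed after quantile normalization (1.38, adjusted p = 0.0422), with a stricter filter at the 75th percentile (1.30, 0.0469) and with the replicate number as a block (1.30, 0.0218). With that block ORC1BP32 stood at 1.24 (0.0606), not past the threshold. In ORC2BP8 its call was lost after centring each array (1.43, 0.0692), without the filter on dim probe sets (1.43, 0.0589) and with only the arrays of the lines compared (1.43, 0.129). With unnamed probe sets in the family, so that more features were tested, it was lost in ORC2B2 (1.86, 0.137), in ORC2BP8 (1.43, 0.154) and for the 4-line mean (1.46, 0.0684). Leaving out 1 array at a time gave AXIN2 differences of 1.09 to 1.51 in ORC1B14, 1.69 to 2.02 in ORC2B2, 1.0 to 1.85 in ORC2BP8 and 1.35 to 1.56 for the 4-line mean. NKD1 in ORC1B14 turned to -0.0576 without ORC1B14 replicate 1 (range -0.06 to 0.34). NKD2 in ORC2B2 turned to -0.05 without WT replicate 2 and to -0.21 without ORC2B2 replicate 2 (range -0.21 to 0.36), and for the 4-line mean to -0.00721 without WT replicate 2 (range -0.01 to 0.24). The count of called WNT pathway genes in ORC1B14 was 1 after quantile normalization, 1 with the stricter filter and 3 with the replicate block, against 0, and 0 to 1 when 1 array was left out. In ORC2BP8, against 2, it was 1 after centring, 1 without the filter, 0 with only the arrays of the lines compared, 6 with the replicate block, and 0 to 4 with 1 array left out. It was 7 with the replicate block for the 4-line mean, against 1, with 0 to 2 when 1 array was left out, and 0 to 1 in ORC2B2. In the order given, these settings called 90, 108 and 496 of all genes in ORC1B14, against 63. In ORC2BP8 they called 58, 77, 18 and 402, against 101, so pathway counts moved the same way. The labels do not tie a replicate number to a shared batch or day, so the numbers were not taken as pairs. Replicate differences of 2 lines correlated over genes at 0.0812 to 0.568 in the 10 pairs of lines, and at 0.255 to 0.363 in those of WT with a mutant line. The 4-line mean uses all lines, so it has no fit on compared lines alone, and the stricter filter dropped NKD2. Over all genes, the count called for the 4-line mean was 110. It was 709 with the block, 4 with unnamed probe sets in the family, and 1 to 267 with 1 array left out, with 1 without WT replicate 2 and 20 without WT replicate 1. With 2 arrays per line, the intervals limit what the NKD1 and NKD2 results can show.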

Other observations

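Some other genes of the pathway lists are described here. Full separation of mutant from WT arrays was common, at 14.9% of all genes in either direction and 16.4% of the tested list genes. Of all genes, 7.96% had all mutant arrays above WT. VEGFA, a growth factor for blood vessels, had all mutant arrays below WT, with a 4-line difference of -0.61 (SE 0.17, limma adjusted p = 0.0934), and RYK, a WNT co-receptor, had the same at -0.23 (adjusted p = 0.420). FZD3, a Frizzled receptor, scattered more between the arrays of WT and of both ORC1 lines than between those of the ORC2 lines. It stood at 6.08 and 7.22 in ORC1B14, 6.58 and 7.43 in ORC1BP32, and 6.94 and 8.61 in WT. In ORC2B2 it was 6.32 and 6.74, and in ORC2BP8 7.93 and 8.18. KREMEN2, a receptor for the WNT inhibitors of the DKK family, had all mutant arrays above WT and a 4-line difference of 0.68 (SE 0.19, adjusted p = 0.0983). TERT, the catalytic subunit of telomerase and a near neighbour of NKD2 on chromosome 5, differed by 1.15 in ORC2BP8 (adjusted p = 0.0524).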
